A study of Mus musculus with 3 samples.

Results

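The mast cell and basophil effector program was followed through 9 of its genes in 3 single-cell RNA libraries of mouse bone marrow. They were picked by gene symbol (Cpa3, Gzmb, Ms4a2, Fcer1a, Fcer1g, Mcpt8, Prss34, Cyp11a1 and Hdc), and all 9 were among the 32285 genes of the deposited counts. The libraries were LSK, the marrow gate named for lineage-negative cells with Sca-1 and Kit; LK, the gate named for lineage-negative cells with Kit; and TBM, total bone marrow. Marrow was taken from mouse femora, tibiae, hips and spines, the antibodies for lineage depletion were against Ter119, CD45R, CD5, CD8a, CD11b, Ly-6C and Ly-6G, and cells were sorted by flow cytometry before 10x Genomics 3' v2 libraries were made. The labels give no strain, genotype, treatment, age, sex or number of mice, nor whether LK excluded Sca-1.

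After filtering, LSK held 1067 cells with 11836820 UMIs (unique molecular identifiers, each counting 1 captured transcript), LK 3461 cells with 49936180 UMIs and TBM 4217 cells with 21958139 UMIs. Median depth per cell was 9688 UMIs for LSK, 13683 UMIs for LK and 3347 UMIs for TBM. By the labels 1070 cells were sorted for LSK, against 1091 barcodes in its file; for LK the numbers are 3441 and 3560, and for TBM 3984 and 4317. Libraries shared 6 barcodes (LSK and LK), 25 (LK and TBM) and 6 (LSK and TBM). With 1 library for each gate there is no replicate, and no test between gates was possible. Levels are CPM (UMIs of the gene in 1000000 UMIs of the library) from 3' ends, with no division by gene length. Intervals are exact 95% intervals and cover counting error only. A count of 3 UMIs, used as the floor for a count of 0, equals 0.253 CPM in LSK, 0.0601 CPM in LK and 0.137 CPM in TBM.

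Mast cells and basophils are granulocytes that carry IgE on a high-affinity receptor built from an alpha chain that binds IgE, a beta chain that amplifies the signal and a gamma chain dimer that carries the signalling motif. Crosslinking of that receptor releases granules holding histamine and serine proteases. Both lineages descend from marrow progenitors that also express genes of other myeloid cells, and Mpo, which encodes the myeloperoxidase of neutrophil and monocyte granules, marks the granulocyte and monocyte branch of these progenitors.

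Promoters are shown for 5 of the genes, from 250 bases before to 50 bases after the start, because the letters of GATA sites (AGATAA or TGATAA, on either strand, in capitals here) were in the promoters of Fcer1a, Ms4a2, Prss34 and Cpa3 and not in that of Mcpt8. The sequences are from RefSeq, build GRCm38.p6, written along the strand of the gene. The windows are chr1:173227180-173227479 for Fcer1a (minus strand), chr19:11623670-11623969 for Ms4a2 (minus strand), chr17:25298144-25298443 for Prss34 (plus strand), chr3:20242132-20242431 for Cpa3 (minus strand) and chr14:56085148-56085447 for Mcpt8 (minus strand).
Fcer1a: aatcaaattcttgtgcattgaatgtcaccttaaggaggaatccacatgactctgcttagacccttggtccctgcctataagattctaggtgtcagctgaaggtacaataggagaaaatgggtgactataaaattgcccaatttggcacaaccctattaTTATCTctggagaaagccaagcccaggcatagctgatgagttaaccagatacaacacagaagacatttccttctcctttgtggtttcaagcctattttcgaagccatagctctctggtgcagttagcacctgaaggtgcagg
Ms4a2: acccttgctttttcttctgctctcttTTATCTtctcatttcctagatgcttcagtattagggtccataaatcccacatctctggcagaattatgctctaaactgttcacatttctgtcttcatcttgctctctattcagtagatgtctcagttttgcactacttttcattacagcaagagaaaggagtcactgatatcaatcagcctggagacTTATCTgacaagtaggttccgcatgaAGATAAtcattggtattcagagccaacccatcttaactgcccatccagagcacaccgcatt
Prss34: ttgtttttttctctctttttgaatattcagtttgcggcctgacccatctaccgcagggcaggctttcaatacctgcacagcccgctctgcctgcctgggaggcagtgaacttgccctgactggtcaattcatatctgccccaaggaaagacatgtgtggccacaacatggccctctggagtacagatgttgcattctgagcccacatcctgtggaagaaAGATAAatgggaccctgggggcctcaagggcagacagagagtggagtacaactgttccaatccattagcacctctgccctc
Cpa3: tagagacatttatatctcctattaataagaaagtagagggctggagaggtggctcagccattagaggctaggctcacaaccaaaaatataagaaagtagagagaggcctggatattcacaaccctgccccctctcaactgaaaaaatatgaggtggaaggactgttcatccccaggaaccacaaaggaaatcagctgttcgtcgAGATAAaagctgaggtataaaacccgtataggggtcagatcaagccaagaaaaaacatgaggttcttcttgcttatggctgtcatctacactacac
Mcpt8: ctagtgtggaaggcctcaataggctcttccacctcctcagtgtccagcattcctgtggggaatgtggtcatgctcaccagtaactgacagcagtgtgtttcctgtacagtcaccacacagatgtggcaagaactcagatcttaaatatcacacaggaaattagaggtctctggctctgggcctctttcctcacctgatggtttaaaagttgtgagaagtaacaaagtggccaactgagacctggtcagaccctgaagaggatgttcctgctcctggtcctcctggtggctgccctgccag
Counted from the start, the letters lie at -92 to -87 in Fcer1a, at -31 to -26 in Prss34 and at -46 to -41 in Cpa3. Ms4a2 has 3 copies, at -224 to -219, -37 to -32 and -11 to -6. The 9 genes have 10 promoter entries in the table, and 4 of the 10 hold these letters, against 18.6% of 32851 promoters of all genes. The letters TTGCNNAA, a part of C/EBP sites, are in 2 of the 10 (Fcer1a and 1 of 2 Cyp11a1 entries), against 10.8% of all promoters. The motifs were chosen after the promoters had been read. A match is a description of the sequence, and no binding was measured.

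Fcer1a encodes the IgE-binding alpha chain (ENSMUSG00000005339, chr1:173221284-173227214, minus strand, GRCm38). It had 21 UMIs in LSK, 351 in LK and 472 in TBM. These are 1.77 CPM in LSK (1.10 to 2.71), 7.03 CPM in LK (6.31 to 7.80) and 21.5 CPM in TBM (19.6 to 23.5), so the 3 intervals do not overlap. A UMI was seen in 10 LSK cells (0.937%), 118 LK cells (3.41%) and 56 TBM cells (1.33%). The cell with the most UMIs held 38.1% of all Fcer1a UMIs in LSK, 6.27% in LK and 11.0% in TBM. In LK 20 cells held 50% of the UMIs and in TBM 7 did, so a few of the 56 positive TBM cells held most of the transcripts. The median positive TBM cell had 3.5 UMIs, and the top 10 held 62.7%.

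Ms4a2 encodes the beta chain, the signal amplifier (ENSMUSG00000024680, chr19:11615523-11623719, minus strand). Its level was 1.61 CPM in LSK (0.966 to 2.51), 12.7 CPM in LK (11.7 to 13.7) and 10.1 CPM in TBM (8.82 to 11.5). A UMI was found in 7 LSK cells (0.656%), 192 LK cells (5.55%) and 54 TBM cells (1.28%). The LK and TBM levels lie close together, and the order depends on the scaling, as given with the ratios between libraries. In LSK 12 of 19 UMIs (63.2%) sat in 1 cell, against 2.83% in the top LK cell and 13.5% in the top TBM cell.

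Fcer1g encodes the gamma chain, which is shared with Fc receptors for IgG and with other receptors of myeloid and NK cells (ENSMUSG00000058715, chr1:171229572-171234365, minus strand). It was the most widely detected of the 9, at 56.7 CPM in LSK (52.5 to 61.1), 255 CPM in LK (251 to 260) and 1293 CPM in TBM (1278 to 1308). A UMI was found in 31.4% of LSK cells, 66.3% of LK cells and 63.0% of TBM cells. No cell dominated it: the top cell held 2.53% of its UMIs in LSK, 0.267% in LK and 0.222% in TBM. In TBM 58.4% of its UMIs were in the cells with neutrophil markers and 29.2% in those with monocyte markers.

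Mcpt8, a basophil granule serine protease gene (ENSMUSG00000022157, chr14:56082166-56085273, minus strand), was at 24.9 CPM in LSK (22.2 to 27.9), 60.1 CPM in LK (58.0 to 62.3) and 240 CPM in TBM (234 to 247). It was seen in 51 LSK cells (4.78%), 1031 LK cells (29.8%) and 286 TBM cells (6.78%). The LSK level rested on 1 cell with 216 of 295 UMIs (73.2%), and was 6.68 CPM without it. LK and TBM differ in how the gene was spread. It took 133 LK cells to reach 50% of the UMIs, with 3.5% in the top cell, whereas 7 TBM cells reached 50%, with 11.6% in the top cell and 70.6% in the top 10.

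Prss34 encodes another basophil serine protease (ENSMUSG00000056399, chr17:25298394-25300165, plus strand). It had 140 UMIs in LSK, 41 in LK and 7167 in TBM, which are 11.8 CPM in LSK (9.95 to 14), 0.821 CPM in LK (0.589 to 1.11) and 326 CPM in TBM (319 to 334). In LSK 129 of the 140 UMIs (92.1%) came from 1 cell, and the other cells had 0.930 CPM. In LK 23 of 41 UMIs (56.1%) came from 1 cell, and the other cells had 0.360 CPM. In TBM the top cell held 11.9% and the top 10 held 76.8%. The share of TBM cells with a UMI (6.62%) says little of expression, because cells with erythroblast markers had a higher one (10.6%, median depth 7207.5 UMIs against 3347 in TBM as a whole). The same holds for Mcpt8 in TBM, at 9.69% of the cells with erythroblast markers against 6.78% of all.

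Gzmb encodes granzyme B, a cytotoxic protease of NK and T cells that mast cells can also make (ENSMUSG00000015437, chr14:56258838-56262260, minus strand). Its levels were 5.24 CPM in LSK (4.02 to 6.71), 3.16 CPM in LK (2.69 to 3.70) and 3.60 CPM in TBM (2.85 to 4.48). Only 5 LSK, 26 LK and 23 TBM cells had a UMI, which are 0.469%, 0.751% and 0.545% of these libraries in that order. In LSK 57 of 62 UMIs (91.9%) were in 1 cell, and without it the level was 0.423 CPM. In LK 4 cells held 50% of the UMIs, and the top 10 held 87.3%. In TBM 1 cell held 35 of 79 UMIs (44.3%), and the level without it was 2.0 CPM.

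Cpa3, the carboxypeptidase A gene of mast cell granules (ENSMUSG00000001865, chr3:20215620-20242181, minus strand), was at 38.9 CPM in LSK (35.5 to 42.7), 202 CPM in LK (198 to 206) and 39.2 CPM in TBM (36.6 to 41.9), so LK had the highest level. A UMI was found in 15.0% of LSK cells, 36.1% of LK cells and 2.16% of TBM cells. The LSK and TBM levels were nearly equal but differently spread, with 160 LSK and 91 TBM cells positive. The top cell held 9.54% of the UMIs in LSK, 0.811% in LK and 9.64% in TBM.

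Hdc encodes histidine decarboxylase, the enzyme that makes histamine (ENSMUSG00000027360, chr2:126593667-126619299, minus strand). It was at 6.67 CPM in LSK (5.28 to 8.32), 90.4 CPM in LK (87.8 to 93.1) and 107 CPM in TBM (102 to 111), with a UMI in 2.72% of LSK cells, 41.1% of LK cells and 24.5% of TBM cells. The top cell held 16.5% in LSK, 0.443% in LK and 1.07% in TBM. After Fcer1g it was the most broadly spread of the genes in TBM, where 75.2% of its UMIs were in the cells with neutrophil markers.

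Cyp11a1 encodes the mitochondrial enzyme that cuts the cholesterol side chain, the entry step of steroid synthesis (ENSMUSG00000032323, chr9:58006411-58027023, plus strand). It had 36 UMIs in LSK, 48 in LK and 78 in TBM, which are 3.04 CPM in LSK (2.13 to 4.21), 0.961 CPM in LK (0.709 to 1.27) and 3.55 CPM in TBM (2.81 to 4.43). Unlike Prss34 and Gzmb it was not carried by 1 cell in LSK, where 28 cells (2.62%) were positive and the top cell had 4 UMIs (11.1%). In TBM 30 cells (0.711%) were positive, and 97.4% of its UMIs were in the 47 cells described below that hold several of these genes. Cyp11a1 is itself among the genes used to choose those cells.

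**Figure D1:**
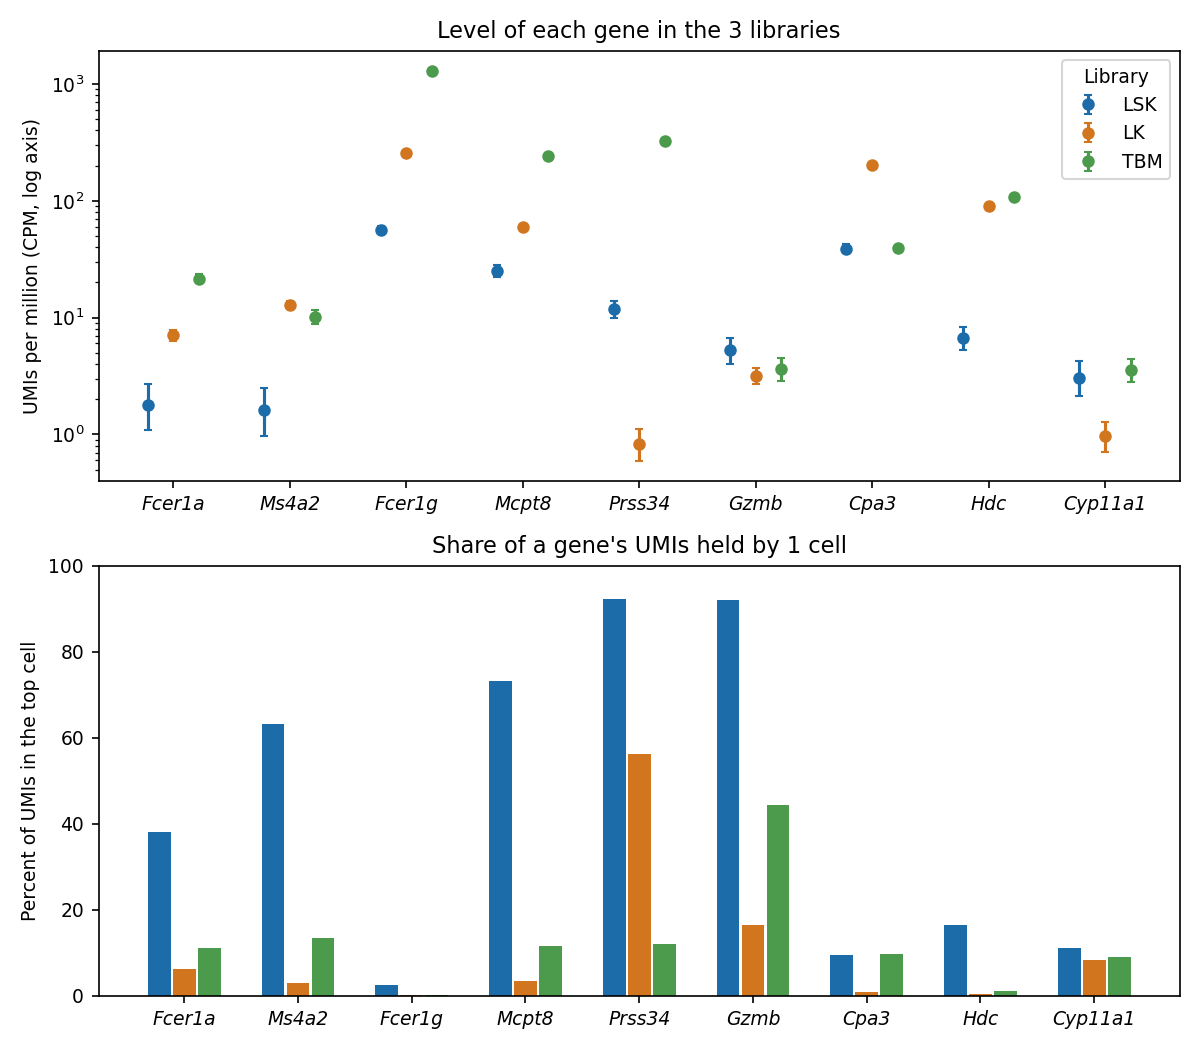
Level (CPM, log axis, with exact 95% Poisson intervals) and share of the gene's UMIs held by the top cell (percent) for the 9 genes in LSK, LK and TBM, 1 library each. Prss34 and Gzmb stand out in LSK, where 1 cell held 92.1% and 91.9% of their UMIs, while Fcer1g stays under 3% in all 3 libraries.

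Depth differs between the gates, so each cell was also thinned to 2000 UMIs, which used 1067 LSK, 3452 LK and 2929 TBM cells and left out 0, 9 and 1288 shallower ones. Mcpt8 was then seen in 0.843% of LSK cells, 8.11% of LK cells and 3.24% of TBM cells. Hdc was seen in 0.562% of LSK cells, 12.7% of LK cells and 16.1% of TBM cells, so the order of LK and TBM turned round. Fcer1g was seen in 9.84% of LSK cells, 30.2% of LK cells and 62.0% of TBM cells, and Cpa3 in 4.59% of LSK cells, 19.5% of LK cells and 1.60% of TBM cells. The shares of Fcer1a (1.59% of LK and 1.30% of TBM cells) and Gzmb (0.463% of LK and 0.512% of TBM cells) were close in LK and TBM at this depth.

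Between LSK and LK, 2 of the 9 were higher in LSK by 2-fold or more, against 19.9% of the 13016 genes with at least 20 UMIs over both, and 6 were at least 2-fold lower, against 4.04% of these genes. The median of all these genes was at 0.34 on the log2 scale with library totals, 0.35 without the 10 most abundant genes of each library and 0.06 with median-of-ratios size factors, and the members' ratios are to be read relative to it. Lower in LSK were Hdc at -3.76 (-4.10 to -3.44), Ms4a2 at -2.99 (-3.73 to -2.33), Cpa3 at -2.38 (-2.52 to -2.24), Fcer1g at -2.17 (-2.29 to -2.06), Fcer1a at -1.99 (-2.70 to -1.35) and Mcpt8 at -1.27 (-1.45 to -1.10). Higher were Prss34 at 3.85 (3.34 to 4.39) and Cyp11a1 at 1.66 (1.0 to 2.32). The 3 receptor chain genes, Hdc, Cpa3 and Mcpt8 thus lay on the LK side. Single cells decide part of this: without the top cell of each library Prss34 was at 1.37, Mcpt8 at -3.12 and Gzmb at -2.65, against 0.73 (0.28 to 1.16) for Gzmb with all cells.

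Between LK and TBM, 1 gene was at least 2-fold higher in LK (Cpa3), against 27.3% of 13416 genes, and 5 were lower, against 16.8%. Cpa3 was at 2.37 (2.27 to 2.47), and Prss34 was the farthest below, at -8.63 (-9.11 to -8.19). Fcer1g was at -2.34, Mcpt8 at -2.0, Cyp11a1 at -1.89 and Fcer1a at -1.61. Ms4a2 at 0.33 (0.11 to 0.56), Hdc at -0.24 (-0.31 to -0.17) and Gzmb at -0.19 (-0.58 to 0.22) did not reach 2-fold. With median-of-ratios size factors Ms4a2 was at -0.06, so its direction flips with the scaling. The median gene was at 0.37 with library totals, at 0.02 without the 10 most abundant genes of each library and at -0.03 with size factors.

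Between LSK and TBM, 0 of the 9 were higher in LSK by 2-fold or more, against 36.9% of 12916 genes, and 6 were lower, against 13.1%. The lower ones were Prss34 at -4.79, Fcer1g at -4.51, Hdc at -4.00, Fcer1a at -3.60, Mcpt8 at -3.27 and Ms4a2 at -2.66. Cpa3 at -0.01 (-0.18 to 0.16), Cyp11a1 at -0.22 (-0.84 to 0.36) and Gzmb at 0.54 (0.04 to 1.04) were within 2-fold. The median gene was at 0.67, and at 0.33 without the 10 most abundant genes. Gzmb turned to -0.13 with size factors and to -2.25 without the top cells.

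Other genes of the pathway were set beside these 9. Of 16 kinase and adaptor genes of IgE receptor signalling, 5 were higher by 2-fold or more and 0 lower in LSK than in LK, with a median of 0.60 against 0.34 over all genes. Over all genes tested, 19.9% were higher and 4.04% lower in this comparison, and the counts of each list are to be read against these shares. Among them Lat, the adaptor on which the signal assembles, was at 1.54, and Fyn, a Src family kinase, at 1.32. Slc18a2, the transporter that loads histamine into granules, was at 1.40 in LSK over LK and at 3.15 in LK over TBM, while Hdc was at -3.76 and -0.24. Of 6 measured Ms4a genes that neighbour Ms4a2 on its chromosome, 5 were lower in LSK than in LK and 0 higher (median -2.39), led by Ms4a3 at -4.26. Of 4 measured partners of the gamma chain 2 were lower and 0 higher, among them the IgG receptor gene Fcgr3 at -4.17. Of 7 measured partners of Cyp11a1 in steroid synthesis, 3 were higher and 0 lower in LK than in TBM, where 27.3% of all genes were higher and 16.8% lower, with the electron carrier Fdx1 at 1.94 and its reductase Fdxr at 1.65. The remaining lists are given as counts of at least 2-fold higher and lower genes of those measured. LSK over LK had 2 higher and 1 lower of 11 granule storage genes, 2 and 2 of 9 cytokine genes, and 0 and 2 of 10 transcription factors. The shares of higher granule storage and cytokine genes are thus near the 19.9% of all genes.

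The shares of cells in which genes were seen together moved with depth. Of 15 shares of this kind that were recomputed, 11 moved when cells were thinned to 2000 UMIs and 10 moved when at least 2 UMIs were asked of each gene. In LK, 65 of 118 Fcer1a cells (55.1%) also had Ms4a2, which was in 5.55% of all LK cells, and 33.9% of Ms4a2 cells had Fcer1a. Cpa3 was in 80.5% of Fcer1a cells and 87.0% of Ms4a2 cells, against 36.1% of all. Of 13 Prss34 cells 10 had Ms4a2 (76.9%) and 12 had Cpa3 (92.3%). Gzmb went with Cpa3 in 22 of 26 cells (84.6%) and with Prss34 in 0. Hdc was in 692 of 1031 Mcpt8 cells (67.1%, against 41.1% of all), and Fcer1a in 26 of them (2.52%). At 2000 UMIs per cell, Hdc was in 24.3% of LK Mcpt8 cells, against 12.7% of all LK cells at that depth. Ms4a2 was then in 41.7% and Cpa3 in 68.8% of Fcer1a cells, Cpa3 was in 82.4% of Ms4a2 cells, and Fcer1a was in 22.0% of Ms4a2 cells.

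In TBM, Cyp11a1 cells nearly all held other members: of 30 cells 27 had Fcer1a, 26 had Ms4a2 (86.7%) and 29 had Hdc (96.7%). Fcer1a was in 64.8% of Ms4a2 cells. Mcpt8 and Prss34 shared 52 cells, 18.2% of the Mcpt8 and 18.6% of the Prss34 cells, and with at least 2 UMIs asked of each gene these shares were 42.1% and 72.7%. In LSK the counts are small. Of 12 Prss34 cells 11 had none of the other members apart from 1 cell with Fcer1g, and the remaining cell had 8 of the 9 genes. All 9 genes together were found in 0 cells of any library, and 8 were found in 1 LSK, 2 LK and 18 TBM cells.

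**Figure D2:**
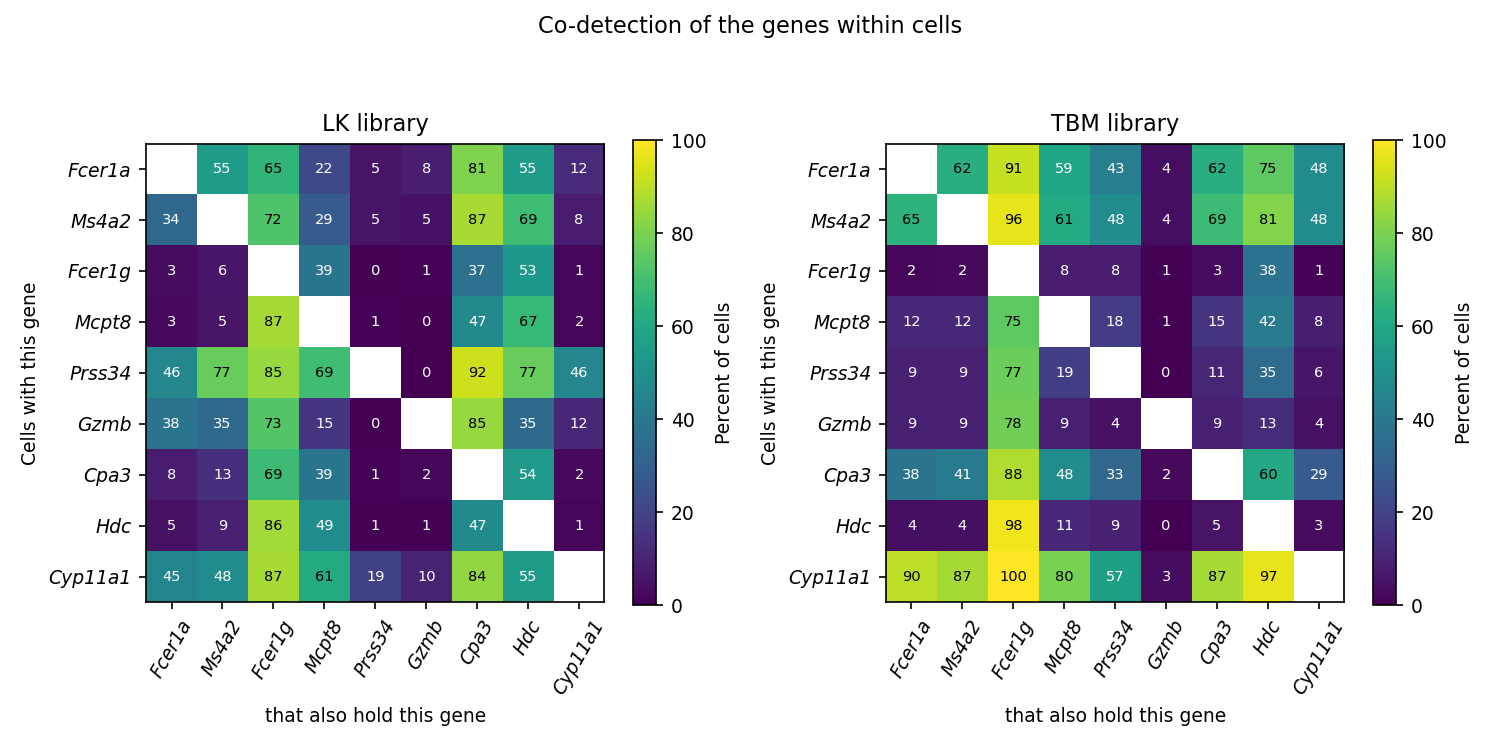
Share of the cells with a UMI of the row gene that also had a UMI of the column gene (colour and printed value, percent) in LK and TBM, with LSK left out for its few positive cells. In LK 87.0% of Ms4a2 cells had Cpa3 and 67.1% of Mcpt8 cells had Hdc, and in TBM 27 of 30 Cyp11a1 cells had Fcer1a.

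The 1 LSK cell with the most Prss34 also led LSK in Fcer1a, Ms4a2, Mcpt8 and Cpa3. It had 14843 UMIs, with 129 of Prss34, 216 of Mcpt8, 44 of Cpa3, 12 of Ms4a2, 8 of Fcer1a, 14 of Fcer1g, 6 of Hdc, 2 of Cyp11a1, 0 of Gzmb and 147 of Mpo. A different LSK cell of 6373 UMIs led Gzmb (57 UMIs), with 6 of Cpa3, 2 of Ms4a2, 4 of Cyp11a1 and 0 of Mpo. The top Gzmb cell of LK (4089 UMIs) had 26 of Gzmb, 52 of Cpa3, 37 of Mcpt8, 9 of Fcer1a and 2 of Mpo. The top TBM cell of both Mcpt8 and Prss34 had 610 and 855 UMIs of them among 7634, and the 9 genes made up 20.9% of that cell. The top Gzmb cell of each library had 0 UMIs of Prss34, and the top Prss34 cell of each had 0 of Gzmb.

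Cells with at least 3 of the 6 genes called restricted here (Ms4a2, Fcer1a, Mcpt8, Prss34, Cyp11a1 and Hdc) were counted as cells of the program. There was 1 in LSK (0.0937%, 0.00237% to 0.521%), 94 in LK (2.72%, 2.20% to 3.31%) and 47 in TBM (1.11%, 0.820% to 1.48%). Of these, 0 cells of LSK, 65 of LK and 11 of TBM held exactly 3 of the genes, and exactly 2, just outside the limit, were held by 15 LSK, 718 LK and 178 TBM cells. Because Mcpt8 and Hdc are broad in LK, a stricter count of cells with 2 or more of Ms4a2, Fcer1a, Prss34 and Cyp11a1 was added after the values had been seen, and gave 3 LSK, 73 LK and 40 TBM cells. After thinning to 2000 UMIs the first count was 24 in LK and 29 in TBM.

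These cells were chosen by the transcripts, so their high levels of the 6 genes are no finding. The choice also raises the share of those 6 genes' UMIs that they hold, so these shares are given only as values. In TBM the 47 cells held 97.4% of Cyp11a1, 96.4% of Prss34, 95.8% of Fcer1a, 94.0% of Mcpt8 and 91.0% of Ms4a2 UMIs, but 14% of Hdc UMIs. Of the genes not used in the choice they held 83.2% of Cpa3, 45.6% of Gzmb (35 of 36 of these UMIs in 1 cell) and 2.2% of Fcer1g UMIs. In LK the 94 cells held 95.1% of Prss34, 77.1% of Cyp11a1, 63.5% of Fcer1a and 58.6% of Ms4a2, but 13.2% of Mcpt8 and 9.9% of Hdc. Cpa3 was at 20.6%, Gzmb at 32.3% and Fcer1g at 2.4%. Most Mcpt8 UMIs were therefore inside these cells in TBM and outside them in LK, with Mcpt8 among the genes used in the choice.

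The label of the genes was checked against defining markers of both cell types in these cells. Among mast cell markers, the tryptases Tpsb2 and Tpsab1, the chymase Mcpt4 and the receptors Mrgprb1 and Mrgprb2 had 0 UMIs in the 94 LK and 47 TBM cells, and the chymase Cma1 had 6 and 2. Cd200r3, a basophil surface receptor gene, was at 502 CPM in the 47 TBM cells against 0.185 CPM in other TBM cells, and at 11.3 CPM in the 94 LK cells against 0.288 CPM. Epx and Prg2, eosinophil granule genes, had 0 UMIs in the TBM cells. In the 94 LK cells Prg2 had 20 UMIs, in 4 cells and 10 of them in 1, which are 16.1 CPM against 2.81 CPM in the other LK cells, where 82.5% of 137 UMIs were in 1 cell. Epx had 1 UMI in the 94 LK cells and 2 in the other LK cells. These Prg2 and Epx UMIs of the 94 cells were in the Mpo-positive ones described next, and their part in the levels there was not tested. So Cd200r3 was present in the cells of both libraries, and 5 of the 8 listed mast cell markers had no UMI, while Cma1, Cpa3 and the progenitor receptor gene Kit did. The 0 counts say that those transcripts were not detected at this depth.

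The 94 LK cells divide by Mpo, with 73 Mpo-positive (at least 10 Mpo UMIs per 10000) and 21 below that. Mcpt8 and Hdc, both used in the choice, were in 45.8% and 59.8% of all Mpo-positive LK cells. In the other LK cells they were in 1.98% and 8.70%, so the choice itself favours Mpo-positive cells. By the stricter rule of 2 or more of 4 genes the split was 42 Mpo-positive and 31 others. The values below are for the first rule. Gzmb was at 0.914 CPM in the 73 (1 UMI) and at 341 CPM in the 21 (50 UMIs), and Cma1 had 0 UMIs in the 73 and 6 in the 21. Prss34 had 39 UMIs in the 73 and 0 in the 21, and Cd200r3 had 14 and 0. The 21 cells were fewer and shallower, with a median of 6227 UMIs against 13504 in the 73. The 0 counts in the 21 therefore do not show a lower level. Few cells stand behind these counts. In the 21, the Gzmb UMIs were in 6 cells (26 of them in 1) and the Cma1 UMIs in 2 cells (4 in 1). In the 73, the Prss34 UMIs were in 11 cells (23 in 1) and the Cd200r3 UMIs in 8 cells. Fcer1a was at 149 CPM in the 73 and 409 CPM in the 21. Fcer1a is used in the choice, and a shallow cell passes it more readily where such genes are high. Levels of the genes of the choice are therefore given here only as values. Cpa3, not used in the choice, was at 1692 CPM in the 73 and 1602 CPM in the 21. Gata2, a transcription factor of both lineages, was at 228 CPM in the 73 and 511 CPM in the 21.

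Of the 47 TBM cells 16 were Mpo-positive, with a median of 11329 UMIs, and 31 were not, with 3107. By the stricter rule 12 TBM cells were Mpo-positive and 28 were not. Cd200r3 was at 97.0 CPM in the 16 and 1152 CPM in the 31, Fcer1a at 758 and 1979 CPM, Cyp11a1 at 70.6 and 424 CPM, Hdc at 384 and 1710 CPM, and Il4, a basophil cytokine gene, at 17.6 and 120 CPM. Cpa3 was at 2064 and 1752 CPM. S100a8, a neutrophil gene, was at 2240 CPM in the 16 and 68040 CPM in the 31, against 72460 CPM in the other TBM cells. Summed neutrophil markers had a median of 44.1 per 10000 in the 16 and 66.1 in the 31, and their part in these differences was not tested. The S100a8 level of the 31 is pooled over cells, and the median cell lay far below it.

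Over the other cells of the library, 5.70% of 12402 genes in LK were at least 2-fold higher in the 94 cells and 5.11% lower; in TBM the shares were 16.0% and 9.58% of 11552 genes. Against these, 5 of 9 measured cytokine and receptor genes were higher in LK and 8 of 9 in TBM, with 0 lower in either. Il6 was at 4.59 in LK and 8.60 in TBM, Il4 at 3.37 in LK and 9.27 in TBM, and Il1rl1, the IL-33 receptor gene, at 3.47 in LK and 3.80 in TBM. These ratios rest on few UMIs. Il4 had 5 in the LK program cells and 19 in the others (1.59 to 4.84), and 21 and 2 in TBM (7.23 to 12.4). Il6 had 19 and 31 UMIs in LK and 33 and 5 in TBM, and Il1rl1 22 and 78 in LK and 9 and 38 in TBM. Of 10 transcription factors 4 were higher and 1 lower in each library. Gata2 was at 1.72 in LK and 6.62 in TBM, and Ikzf2, an Ikaros family transcription factor, at 2.40 and 4.71. The lower ones were Mitf at -1.38 in LK and Zfpm1 at -2.75 in TBM, each on 1 UMI in the program cells. Of 11 granule storage genes 1 was higher and 0 lower in LK, and 4 were higher and 1 lower in TBM. Slc18a2 was at 2.61 in LK and 6.87 in TBM, and Stx11 at -1.98 in TBM. Of 16 IgE signalling genes 1 was higher and 0 lower in LK. In TBM 4 were higher, with the adaptors Lat and Lat2 at 2.64 and 2.57, and 2 were lower, with the kinase Syk at -1.48. Of the measured steroid synthesis partners 0 of 7 in LK and 2 of 6 in TBM were higher.

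**Figure D3:**
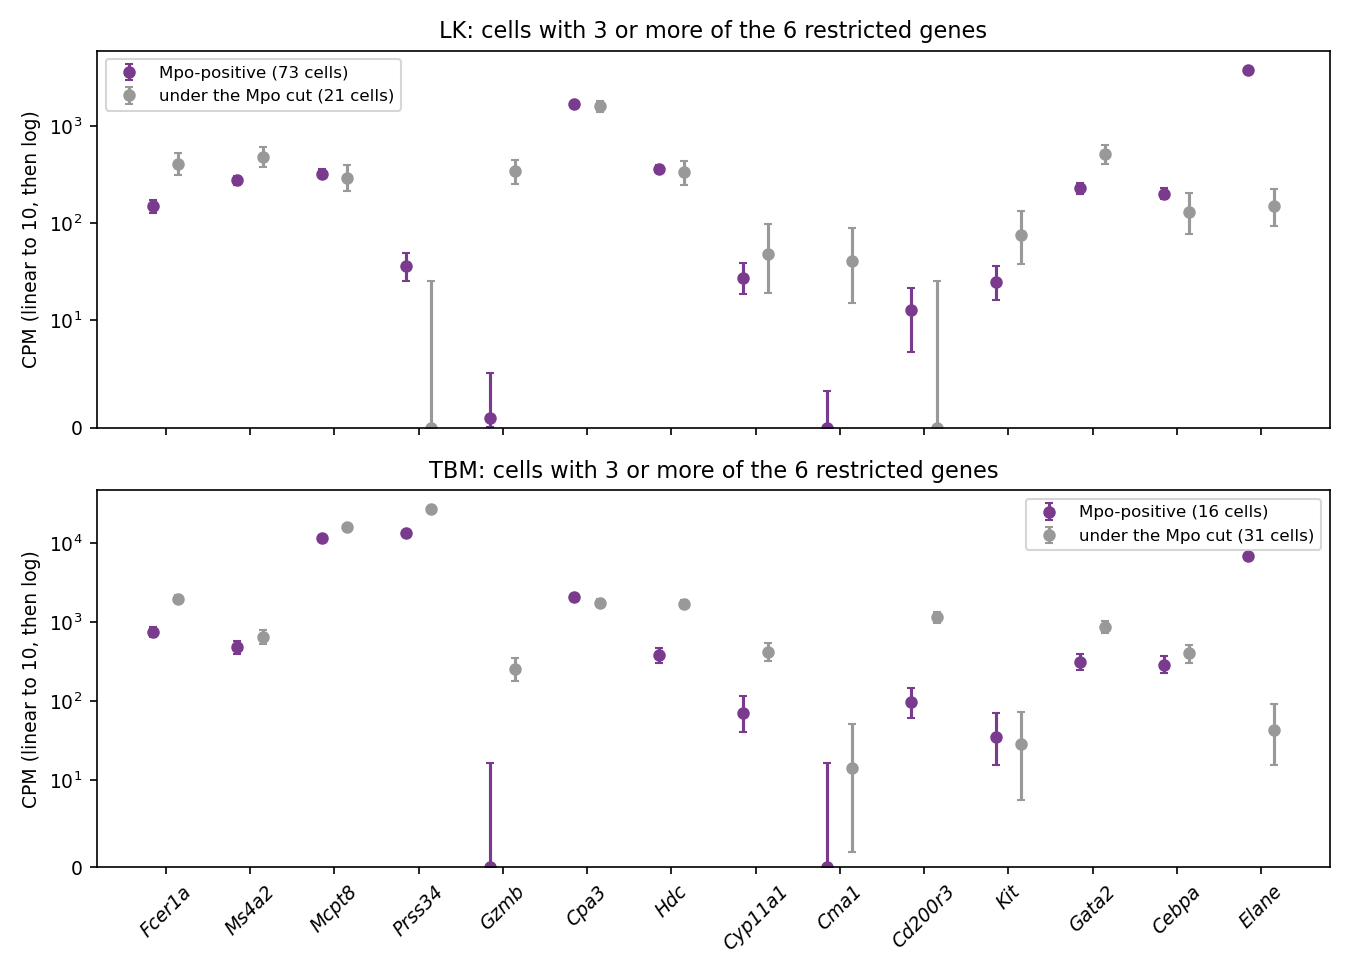
Levels (CPM, axis linear to 10 and logarithmic above, bars are exact 95% Poisson intervals) in the cells with at least 3 of the 6 restricted genes, split into Mpo-positive cells and the others, for LK (73 and 21 cells) and TBM (16 and 31 cells). Gzmb is on the low-Mpo side in LK (0.914 against 341 CPM) and Cd200r3 on the low-Mpo side in TBM (97.0 against 1152 CPM).

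Which genes extend to Mpo-positive progenitors was asked in each library by comparing Mpo-positive cells with all other cells. The level of Mpo itself was 608 CPM for LSK, 7738 CPM for LK and 782 CPM for TBM. There were 54 Mpo-positive cells in LSK, 2196 in LK and 138 in TBM, and they were deeper than the others, with medians of 19149.5 against 9520 UMIs in LSK, 17611.5 against 7472 in LK and 16844.5 against 3234 in TBM.

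In LK, Mcpt8 had the largest share of its UMIs in Mpo-positive cells of the 9. It was at 76.3 CPM in Mpo-positive cells and 5.90 CPM in the others, a log2 ratio of 3.69 (3.35 to 4.06), with a UMI in 45.8% and 1.98% of them, and 97.7% of all its LK UMIs lay in Mpo-positive cells. Mpo-positive cells are the larger and deeper set (2196 against 1265 cells) and hold most UMIs of the library. Ms4a2, at a lower level in them, still had 61.3% of its UMIs there. Hdc was at 112 and 17.9 CPM (2.65, 2.45 to 2.86), in 59.8% and 8.70% of the cells. Fcer1g was at 314 and 57.9 CPM (2.44, 2.33 to 2.56). Prss34 had 39 and 2 UMIs (2.55, 0.60 to 5.64), with 59.0% of the 39 in 1 cell, and Cpa3 was at 225 and 128 CPM (0.81, 0.73 to 0.89). The alpha and beta chain genes and Gzmb went the other way. Fcer1a was at 4.50 and 15.5 CPM (-1.78, -2.09 to -1.47), Ms4a2 at 10.1 and 21.4 CPM (-1.08, -1.31 to -0.84) and Gzmb at 0.755 and 11.2 CPM (-3.89, -4.53 to -3.30), and 82.8% of its 29 UMIs in Mpo-positive cells were in 1 cell. Cyp11a1 was at 0.859 and 1.30 CPM (-0.60, -1.52 to 0.39). So 4 of 9 genes were at least 2-fold higher, against 6.79% of 12402 genes, and 3 lower, against 13.7%.

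With the cells of 3 or more restricted genes taken out of both sides, Fcer1g was at 2.57 and Cpa3 at 0.74, against 2.44 and 0.81 with all cells, and neither gene was used to choose the cells removed. The removal lowers the 6 genes that define those cells by construction, on both sides, so their levels and ratios are given only as values. Mcpt8 was at 69.1 CPM in Mpo-positive cells and 2.20 CPM in the others (4.97), Hdc at 105 and 13.8 CPM (2.92), Fcer1a at -5.28 and Ms4a2 at -2.71. Prss34, also used in the choice, then had 0 UMIs in Mpo-positive cells and 2 in the others.

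The LK cells were also put in bins of rising Mpo. With Mpo at 0, above 0 to 1, 1 to 3, 3 to 10, 10 to 30, 30 to 100 and over 100 UMIs per 10000, the bins hold 211, 57, 500, 497, 333, 838 and 1025 cells. Over these, Mcpt8 was at 3.14, 2.29, 1.57, 12.6, 48.9, 94.2 and 69.0 CPM, highest in the sixth bin. Hdc was at 4.71, 5.73, 8.06, 35.9, 54.8, 80.6 and 145 CPM, highest in the last. Cpa3 was at 87.1, 28.7, 64.5, 236, 404, 309 and 133 CPM highest in the fifth bin, and Ms4a2 at 10.2, 0, 11.4, 40.9, 46.0, 13.5 and 1.13 CPM. Fcer1a was at 3.92, 6.88, 11.6, 25.2, 22.5, 5.98 and 0.147 CPM. Gzmb was at 13.3, 0, 3.54, 21.9, 7.14, 0.0704 and 0.0489 CPM, with next to none past the fifth bin. Fcer1a and Ms4a2 did not differ between 3 to 10 and 10 to 30 beyond counting error, at 20.7 to 30.4 and 18.0 to 27.8 CPM for Fcer1a and at 35.0 to 47.4 and 39.4 to 53.4 CPM for Ms4a2, and Ms4a2 was in 12.9% and 10.2% of the cells. The interval of Gzmb at 3 to 10 (17.7 to 26.9 CPM, in 13 cells) overlaps that of the cells with 0 Mpo (7.77 to 21.4 CPM). For the other 3 the interval of the highest bin lies above all others, at 384 to 425 CPM for Cpa3 at 10 to 30, 89.2 to 99.4 CPM for Mcpt8 at 30 to 100 and 139 to 150 CPM for Hdc over 100. All of this is 1 library. At 2000 UMIs per cell, Mcpt8 was seen in 0.805%, 9.34%, 15.0% and 11.1% of the cells of the last 4 bins, and Hdc in 6.44%, 10.5%, 13.7% and 23.6%. The Mcpt8 intervals at 30 to 100 and over 100 overlap at this depth (12.7% to 17.6% and 9.26% to 13.2%). Unthinned, Mcpt8 was in 47.7% and 50.3% of these cells, so its highest bin by CPM was not the highest by share.

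**Figure D4:**
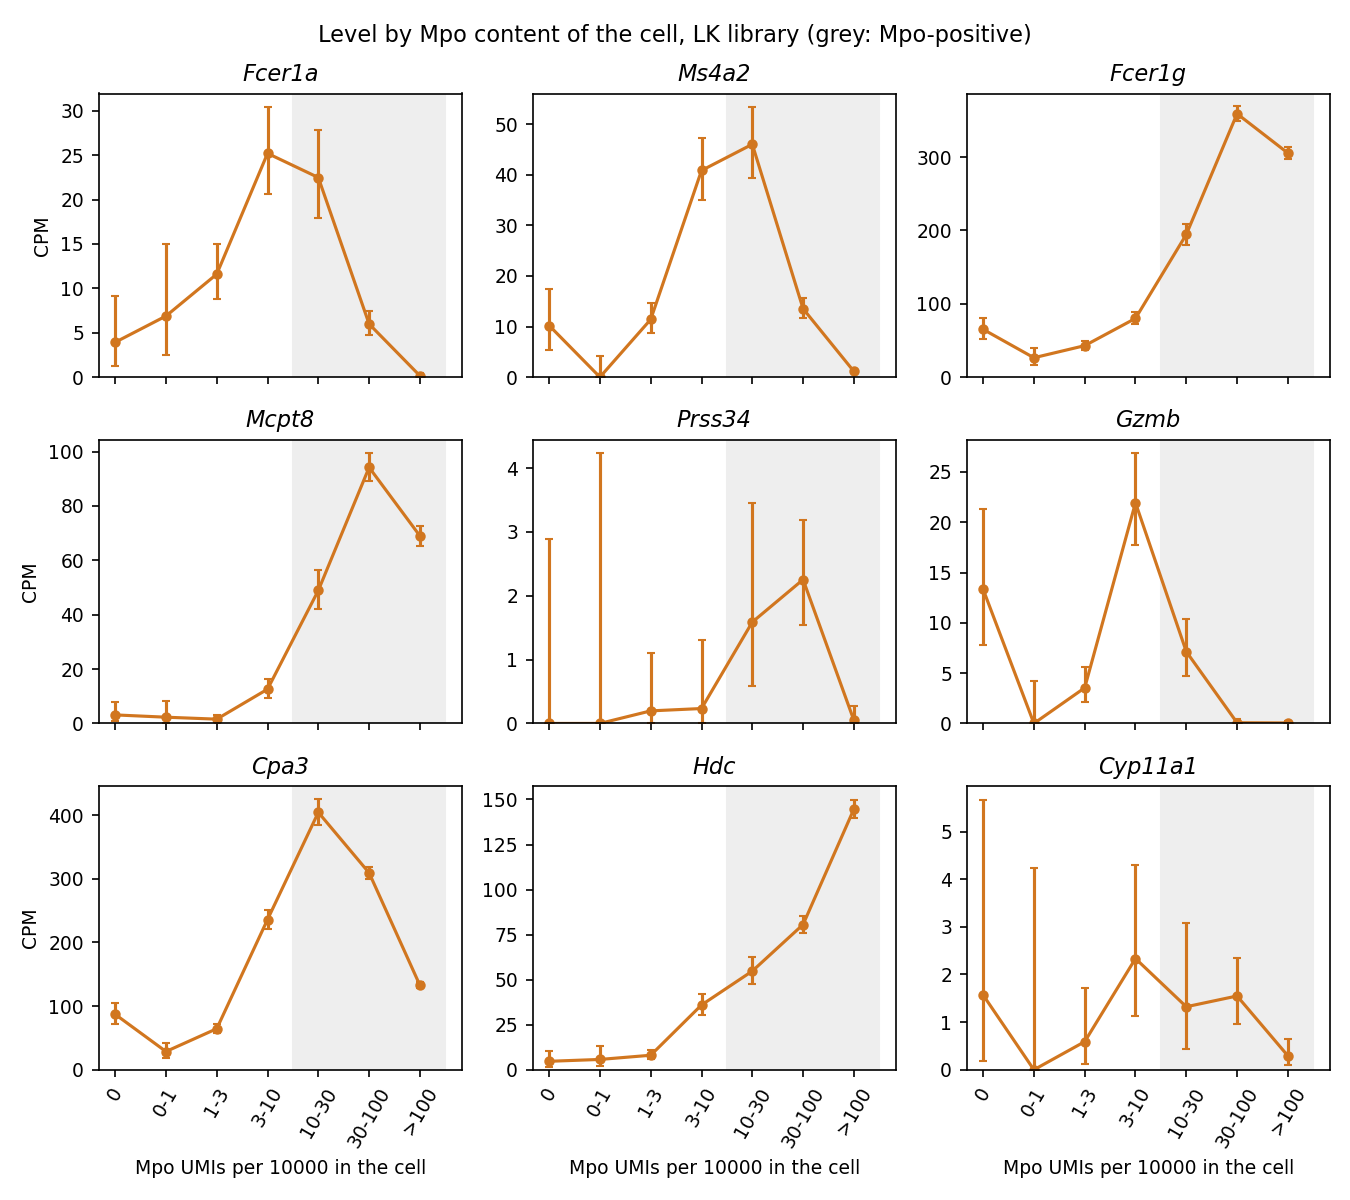
Level of each gene (CPM) in LK cells binned by Mpo UMIs per 10000 UMIs of the cell, with exact 95% Poisson intervals and Mpo-positive bins in grey. Mcpt8 reaches 94.2 CPM at 30 to 100 and Hdc 145 CPM over 100, whereas Fcer1a is at 25.2 CPM at 3 to 10 and 0.147 CPM over 100.

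The Mpo-positive LK cells were divided by Elane, the neutrophil elastase gene, and by summed monocyte markers, each at 10 UMIs per 10000. The 930 cells with Elane but few monocyte markers had Hdc at 172 CPM (86.1% of cells, 28.7% after thinning) and held 69.0% of all LK Hdc UMIs. These cells are 26.9% of LK and deeper than LK as a whole, with a median of 19461 against 13683 UMIs. They had Mcpt8 at 95.8 CPM (63.9% of cells, 15.9% after thinning) and Cpa3 at 238 CPM. The 137 cells with monocyte markers only had Mcpt8 at 21.5 CPM, Cpa3 at 10.7 and Hdc at 11.2, and the 506 cells with both had 33.4, 8.34 and 50.5 CPM in that order. The 623 cells with neither had Cpa3 at 550 CPM, Mcpt8 at 105, Hdc at 84.6, Ms4a2 at 44.0 and Fcer1a at 17.9. Cpa3 was thus lowest with monocyte markers, while Fcer1g was highest there, at 414 CPM with monocyte markers only and 607 CPM with both, against 190 CPM with Elane alone and 183 CPM with neither.

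For background, the 389 LK cells with erythroid progenitor markers (median 8254 UMIs) had Mcpt8 at 1.12 CPM (1.29% of cells, 0 after thinning) and Hdc at 5.36 CPM (6.17%, 1.81% after thinning), so the Mpo-positive shares were far above them. Cpa3 was at 41.3 CPM there (29.0% of cells) and Fcer1g at 25.0 CPM (20.6%). Ms4a2 was at 6.47 CPM (3.86% of these cells against 5.55% of all LK), Fcer1a at 2.23 CPM (2.31% against 3.41%), Prss34 was in 0.257% against 0.376% and Gzmb in 0.514% against 0.751%. For these 4 genes the share of LK cells with a UMI lies near that of the erythroid class, which is shallower. Prss34 and Gzmb were in only 1 and 2 of its cells. The levels were lower in the erythroid class than in all LK cells. Fcer1a was at 2.23 against 7.03 CPM, Ms4a2 at 6.47 against 12.7 CPM and Gzmb at 0.446 against 3.16 CPM. Prss34 was at 0.223 CPM (0.00565 to 1.24) against 0.821 CPM, so its interval includes the LK level. Cpa3 was in 36.1% of all LK cells, and after thinning in 11.9% of the erythroid class against 19.5% of LK. Its level was 41.3 CPM in the erythroid class against 202 CPM in all LK cells. Whether the UMIs in the erythroid class are background or expression was not tested. Cyp11a1 was in 0 of the 389 cells, which allows a share of up to 0.771% when a count of 0 is set at 3 of the 389. Set against the erythroid class alone, Fcer1a in Mpo-positive LK cells was at 1.01 (0.10 to 2.10) and Ms4a2 at 0.65 (0.10 to 1.24). Their direction thus depends on which cells stand on the other side, with 10 Fcer1a and 29 Ms4a2 UMIs in the erythroid class. The 102 cells with megakaryocyte markers had Fcer1a at 33.1 CPM, 39.4% of it in 1 cell.

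**Figure D5:**
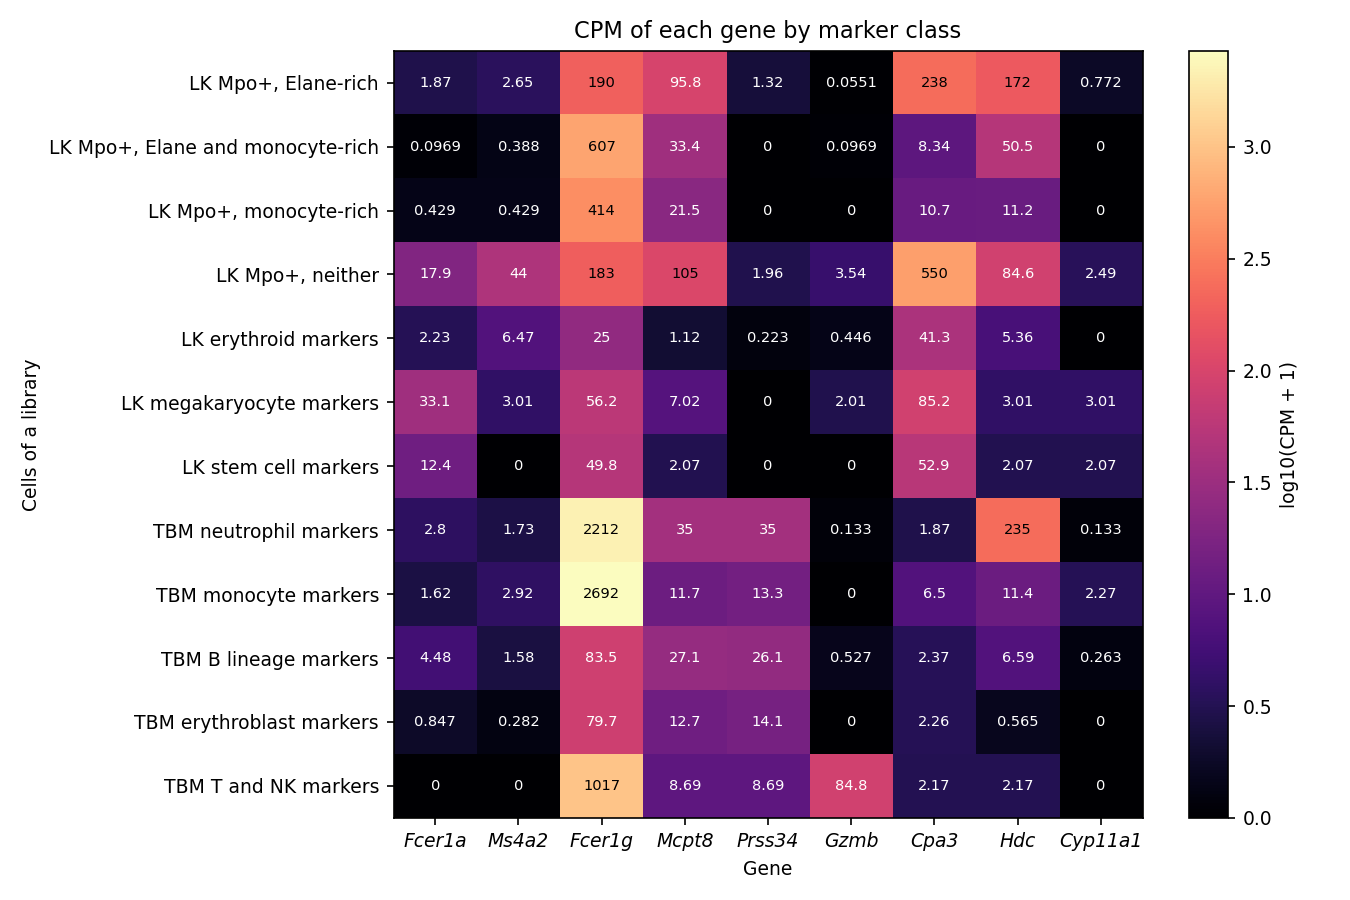
Level of the 9 genes (CPM as printed, colour log10 of CPM + 1) in classes of LK and TBM cells defined by summed marker genes and by Mpo. In LK, Hdc is highest in Mpo-positive cells with Elane (172 CPM), and in TBM it is at 235 CPM in cells with neutrophil markers.

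In LSK the contrast rested on few cells. Of 8 genes with at least 20 UMIs, 6 were at least 2-fold higher in the 54 Mpo-positive cells, against 2.56% of 11355 genes, and 1 was lower, against 14.5%. Mcpt8 was at 234 CPM and 3.17 CPM in the others (6.20), but at 40.8 against 3.17 CPM (3.69, 3.01 to 4.37) without the 1 cell of the program. Hdc was at 59.9 and 1.12 CPM (5.74), and at 5.63 without that cell, and Cpa3 at 156 and 26.8 CPM (2.54), and at 2.14. Fcer1g was at 230 and 38.6 CPM (2.57), and at 2.51. All 129 Prss34 UMIs and all 8 Fcer1a UMIs of Mpo-positive LSK cells came from that cell, so without it both genes were at 0 there. Gzmb, the 1 lower gene, had 0 UMIs in Mpo-positive cells and 62 in the others, 57 of them in 1 cell. Cyp11a1, at 2.68 and 3.08 CPM (-0.20), did not follow Mpo.

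In TBM 6 of 9 genes were at least 2-fold higher in the 138 Mpo-positive cells, against 17.1% of 11552 genes, and 2 lower, against 17.2%. Cpa3 was at 257 and 15.3 CPM (4.07, 3.86 to 4.28), Mcpt8 at 1276 and 127 CPM (3.33), Ms4a2 at 51.6 and 5.56 CPM (3.21), Prss34 at 1429 and 205 CPM (2.80), Fcer1a at 79.7 and 15.1 CPM (2.40) and Cyp11a1 at 7.37 and 3.13 CPM (1.23). Most of this lay in 32 Mpo-positive cells with neither Elane nor monocyte markers, which had Prss34 at 12334 CPM, Mcpt8 at 10704 CPM and Cpa3 at 1923 CPM. With the cells of the program taken out of both sides, Cpa3, which was not used in the choice, stayed at 46.3 against 2.80 CPM (4.05, 3.55 to 4.56). The removal lowers Mcpt8, Prss34 and Fcer1a by construction, on both sides, so theirs are given only as values. Mcpt8 was at 47.8 against 11.5 CPM (2.06, 1.70 to 2.42). Prss34 was then at 7.71 against 12.2 CPM (-0.66, -1.52 to 0.09) and Fcer1a at 0.514 against 0.967 CPM (-0.91, -6.29 to 1.74). The remaining Mcpt8 is to be read with care, since 40.9% of its 93 UMIs were in 1 cell and Mpo-positive cells with Elane (62 cells, 41.1 CPM) had a UMI in 0 cells after thinning.

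Outside Mpo-positive cells, Hdc was found in TBM cells with neutrophil markers and Gzmb in those with T and NK markers. The 1531 cells with neutrophil markers had Hdc at 235 CPM, in 57.3% of cells, against 0.565 CPM in 454 cells with erythroblast markers, in 0.441%. Fcer1g was at 2212 CPM in the neutrophil class (98.9% of cells), 2692 CPM in 437 cells with monocyte markers (100% of cells), 1017 CPM in 142 cells with T and NK markers (46.5%) and 79.7 CPM in the erythroblast class. Gzmb was at 84.8 CPM in the T and NK class, in 12.0% of cells and with 49.4% of its TBM UMIs. A further 45.6% of its UMIs were in cells without class markers, 97.2% of these in 1 cell that also had 24 Cpa3 UMIs. Mcpt8 and Prss34 were also seen in classes that should lack them, at 12.7 and 14.1 CPM in the erythroblast class, 27.1 and 26.1 CPM in 1351 cells with B lineage markers and 35.0 and 35.0 CPM in the neutrophil class, and 1 cell held 63.5% and 63.1% of them in the neutrophil class and 53.4% and 58.6% in the B lineage class.

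Among the pathway lists in LK, the Ms4a neighbours followed Mpo as a group, with 6 of 6 measured at least 2-fold higher in Mpo-positive cells and 0 lower (median 3.07, against -0.22 over all genes). Over all genes tested 6.79% were higher and 13.7% lower. Ms4a6c was at 4.20 and Ms4a3, a granulocyte-monocyte progenitor gene, at 4.17, while Ms4a2 was at -1.08. Of 10 transcription factors 2 were higher and 5 lower, with Cebpa, a myeloid factor, at 2.57, Gata2 at -2.87, Gata1 at -4.42 and its cofactor Zfpm1 at -3.47. In the chromosome 14 protease locus, Ctsg (cathepsin G) was at 5.40, Mcpt8 at 3.69 and Gzmb at -3.89, so genes of this locus differed in direction. Of 11 granule storage genes 1 was higher and 4 lower, with the secretion GTPases Rab27a at 1.72 and Rab27b at -4.99 and Slc18a2 at -2.62. IgE signalling genes had 0 higher and 2 lower of 16, Lat at -3.46 and Fyn at -1.86, a share of lower genes near that over all genes. Steroid synthesis partners had 0 higher and 0 lower of 7. Of 4 measured gamma chain partners 2 were higher and 1 lower, with Fcgr3 at 4.46 and Clec4d, a lectin receptor gene, at -2.34. Cytokine genes had 2 higher and 3 lower of 9.

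The genes most like each member over the 3461 LK cells, by Pearson correlation of log values as a description, are given here. Cells share 1 library, and depth and zeros enter every value. Fcer1a was most like Ms4a2 (0.48), Cyp11a1 (0.43) and Alox5 (0.38), the leukotriene synthesis enzyme gene. Ms4a2 was most like Lmo4 (0.49), Fcer1a (0.48) and Rnase12 (0.45). Mcpt8 was most like Ctsg (0.37), Mpo (0.34) and Calr (0.33), and Hdc most like Ms4a3 (0.57), Cebpe (0.54) and Ap3s1 (0.50). Fcer1g went with Tyrobp (0.65), the DAP12 adaptor gene, Irf8 (0.65) and Ms4a6c (0.64). Cpa3 went with Hdc (0.44), Lmo4 (0.42) and Fut8 (0.41). Prss34 went with Rnase12 (0.42), C5ar2 (0.32) and Cyp11a1 (0.32), and Gzmb with Scin (0.45), Rab19 (0.41) and Gnaz (0.35). Cyp11a1 went with Fcer1a (0.43), Alox5 (0.38) and Prss34 (0.32).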

How the data were processed

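For LSK, LK and TBM the authors deposited 1 matrix each of unnormalized UMI counts, genes by cells, per the file headers. The submitters' processing notes name Cell Ranger 4.0.0 and mm10, and the labels state 10x Genomics 3' v2 chemistry. Cells with under 200 genes or over 10% mitochondrial UMIs were left out, and Scrublet (scanpy 1.11.5) removed 3 LSK, 3 LK and 73 TBM cells as doublets. It marked under 0.5% of LSK and LK, so doublets can remain there. Counts were summed per library or set of cells and scaled to CPM, with a call at 2-fold and 20 UMIs over both sides, and a count of 0 set at 3 counts for calls and medians. Intervals (95%) are exact Poisson for levels, Clopper-Pearson for shares and conditional binomial for ratios. With 1 library per group no test was run. Mpo-positive cells had at least 10 Mpo UMIs per 10000, and marker classes used summed markers with limits chosen after their sums had been seen. The 9 genes were all named, and the lists, motifs and genes were chosen with earlier results of these data known. Likeness is Pearson's r of log(1 + UMIs per 10000), with the 3 highest genes named for each member. The summing and the call were tested on simulated data. Alternatives were other scalings, filters, limits and cell sets. Python 3.11.15, numpy 2.4.6, scipy 1.17.1, pandas 2.3.3 and matplotlib 3.10.9 were used.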

Additional observations from a re-analysis of the deposited data

Results flagged for a closer look

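For 3 genes the log2 ratio of Mpo-positive over other cells was at least 2-fold in opposite directions in different libraries, and the difference between libraries was not tested. Fcer1a was at 2.56 in LSK, -1.78 in LK and 2.40 in TBM. Its 8 UMIs in Mpo-positive LSK cells were all in 1 cell. Ms4a2 was at -1.08 in LK and 3.21 in TBM. Fcer1g was at 2.57 in LSK, 2.44 in LK and -1.04 in TBM, where the other cells include those with neutrophil and monocyte markers. Cyp11a1 also changed sign, at -0.20 in LSK, -0.60 in LK and 1.23 in TBM, with the LSK and LK values under 2-fold and their intervals (-2.55 to 1.48 and -1.52 to 0.39) spanning 0.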

How the results depend on the processing

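No paired analysis was possible because each group is 1 library. Keeping doublets, or every barcode, left 27 of 27 log2 ratios between libraries close to their values, while equal weight for each cell moved 18 of 27, median-of-ratios size factors 16, leaving out the top cell of each member 12 and a total without the 10 most abundant genes 10. With equal weight for each cell, the number of members at least 2-fold higher was 1 in LSK over LK, 2 in LK over TBM and 1 in LSK over TBM, and the number lower in Mpo-positive cells was 0 in LSK and 0 in TBM. Cells with 3 or more restricted genes numbered 24 in LK and 29 in TBM after thinning to 2000 UMIs, and 41 in LK when 2 UMIs were asked of each gene. The added rule of 2 or more of Ms4a2, Fcer1a, Prss34 and Cyp11a1 gave 3 in LSK. In LSK 0 members were lower with Mpo-positive cells set at 20 per 10000, and 2 were lower without the cells of the program, on 1 side or both. Against the erythroid class in LK 0 members were lower, with Fcer1a at 1.01 (0.10 to 2.10), Ms4a2 at 0.65 (0.10 to 1.24) and Gzmb at 0.76 (-1.23 to 3.87). The Gzmb interval spans 0, on 2 UMIs in the erythroid class, so it gives no direction. These genes were lower in the erythroid class than in all other cells (2.23 against 15.5 CPM, 6.47 against 21.4 CPM and 0.446 against 11.2 CPM). In TBM 1 member was lower with Mpo-positive cells set at 5 per 10000 and 1 without the top cells. With the cells of the program taken out of the TBM Mpo-positive cells only, 1 member was higher and 7 lower, with Fcer1a at -4.88, Ms4a2 at -1.85, Mcpt8 at -1.41, Prss34 at -4.73 and Cyp11a1 at -1.02, values lowered by the removal itself. Taken out of both sides, 2 members were higher and 1 lower, with Fcer1a at -0.91 and Prss34 at -0.66, values that the removal also shapes. For the other changes the cause was not tested. Depth limits the rare genes: LSK had 19 UMIs of Ms4a2 and 21 of Fcer1a.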
